A study of Homo sapiens with 6 samples.

Results

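AP-1 and immediate early genes were examined in HGC-27 cells with and without a knockdown of ACAT2. The genes were defined by a list of 10 symbols, FOS, FOSB, FOSL1, FOSL2, JUN, JUNB, JUND, EGR1, ATF3 and IER3, and all 10 were found among the 58735 genes of the deposited table. HGC-27 is an established line of undifferentiated human gastric carcinoma, grown here in medium with serum. The control cells have the genotype WT and carried pSIH-H1-Puro-shNC, whereas the ACAT2 knockdown cells carried pSIH-H1-Puro-shACAT2. The study describes its negative control vectors as empty. Transfection lasted 24 h in both, followed by 7 days of puromycin, and total RNA was sequenced as 3 libraries of each kind. The labels name neither a clone nor the hairpin used, and with no second hairpin named, loss of ACAT2 and other effects of the hairpin cannot be told apart. Library values are given below in the order of the replicate numbers 1, 2 and 3.

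AP-1 is a dimer of basic leucine zipper proteins. JUN, JUNB and JUND can pair with each other, whereas FOS, FOSB, FOSL1 and FOSL2 bind DNA with a JUN protein as partner, and FOSL1 and FOSL2 lack the strong activation domain of FOS and FOSB. EGR1 (a zinc finger factor), ATF3 (a stress-induced zipper protein) and IER3 (a small protein that acts on cell survival and ERK signalling) belong to the immediate early genes, which serum and growth factors switch on within minutes through MAP kinases. AP-1 shares many enhancers with TEAD factors, the DNA-binding partners of YAP1 and TAZ, on which the study centred.

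The start regions of these genes are shown first, because CREB/ATF and serum signals are read there. Of the 10 genes, 8 had a promoter in the RefSeq table (GRCh38.p14), ATF3 with 2 starts, and the 250 bases before each start were searched on both strands. The core TGACG of the cyclic AMP response element (CRE) was present in 7 of these 8 genes, ATF3 being the exception, against 21.2% of the 35116 promoters in the table. The core nearest the start of each gene is printed here 5′ to 3′ on the strand of the gene, with the core, or its reverse complement, in capitals.
FOS, chr14:75278752-75278780, plus strand, 64 bases before the start: tggttgagcccgTGACGtttacactcatt
FOSB, chr19:45467924-45467952, plus strand, 60 bases before the start: gcaaggggcgggTGACGtaagcagggggg
FOSL2, chr2:28392780-28392808, plus strand, 66 bases before the start: ggagtctggggtTGACGtgagtgaatcca
JUN, chr1:58784154-58784182, minus strand, 123 bases before the start: gagtctccatggTGACGggcgggcccgcc
JUNB, chr19:12791337-12791365, plus strand, 137 bases before the start: gcttcctgacagTGACGcgagccgcctcc
JUND, chr19:18281692-18281720, minus strand, 86 bases before the start: gcaaatgagcgaCGTCAcccgcacccaat
EGR1, chr5:138465401-138465429, plus strand, 66 bases before the start: tatggccatgtaCGTCAcgacggaggcgg

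Longer sites were rarer. The full CRE TGACGTCA, which contains the core, was found in 1 of the 8 genes, JUND, against 1.65% of all promoters. The serum response element, bound by the serum response factor SRF, was found within these windows in EGR1 alone among the 8, against 1.16% of all promoters. Elements farther from the starts were not searched for, so a gene without a match may still have one there. The JUND element and both copies in EGR1 are given with the element in capitals.
JUND, chr19:18281803-18281834, minus strand, 200 bases before the start: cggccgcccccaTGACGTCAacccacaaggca
EGR1, chr5:138465362-138465395, plus strand, 105 bases before the start: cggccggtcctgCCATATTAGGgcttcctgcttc
EGR1, chr5:138465384-138465417, plus strand, 83 bases before the start: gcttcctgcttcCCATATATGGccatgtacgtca

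The AP-1 site TGANTCA, the TEAD site GGAATG and the EGR1 site GCGTGGGCG were not in these windows in any of the 8 genes, against 6.57%, 11.9% and 0.720% of all promoters. The letters TATAAA of the TATA box lay in the windows of 4 of them against 10.7% of all promoters, beginning 33, 30 and 31 bases before the starts of FOS, FOSB and JUNB but 230 bases before a start of ATF3. The RefSeq starts of FOS, FOSL2 and JUN and both starts of ATF3 lie inside the deposited gene models, so their windows are partly or wholly within the gene in that annotation. A match describes letters near a start and does not separate the genes by response, since the CRE core was present in FOSL2 and JUN, whose shACAT2 values were all above the controls, as well as in JUND and EGR1, whose groups overlapped.

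The deposited values are FPKM, the fragments on a gene relative to its length and to the size of the library. Fragments on genes numbered from 14086416 to 16067486 per library. ACAT2, the targeted gene, averaged 12.9 ± 1.25 FPKM in controls and 5.90 ± 0.388 FPKM in knockdown cells (SD, n = 3 libraries each), with a limma adjusted p of 0.0059 (0.0512 without shNC-3). In shACAT2-3, 7477 genes had fragments in that library alone, against 416 to 657 in the others, a background of 0.0519 FPKM. Among the controls, shNC-2 and shNC-3 lay far closer to each other (chi-square per gene 1.75) than any other pair within a group (13.7 to 52.3). Since nothing says that they are separate cultures, p-values measure the spread between libraries, which may be technical. The epithelial markers KRT8, KRT18, KRT19, EPCAM and CDH1 all averaged below 1 FPKM in both groups, so the stomach epithelium of the labels was not visible in them. Of the mesenchymal markers, vimentin (VIM) was at 263 ± 25.6 and 406 ± 61.0 FPKM in control and knockdown cells without overlap (limma adjusted p = 0.0634, or 0.0265 with the replicate block), ZEB1 was at 4.83 and 5.35 FPKM, and CDH2 was near 0. PTPRC, PECAM1 and ALB, markers of leukocytes, endothelium and hepatocytes, averaged at most 0.0426 FPKM in either group. CDH1, at 0.161 FPKM in controls and 0.863 FPKM in knockdown cells, did not overlap between the groups either, and its part and that of VIM in the results below were not tested.

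Levels, compared on the FPKM scale, differed widely between the genes. In control cells JUND was the highest at 70.2 ± 8.13 FPKM, followed by JUNB at 25.4 ± 3.39 and JUN at 6.17 ± 0.732 (SD, n = 3 each). IER3, ATF3 and FOSL2 came next, each with overlapping library values with its neighbour in this order. EGR1 averaged just over 1 FPKM, and FOS, FOSL1 and FOSB stayed below 1 FPKM in every control library, with overlap between FOS and FOSL1 and between FOSL1 and FOSB. In mean level over all libraries JUND stood above 96.3% and JUNB above 90.0% of the genes tested.

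**Figure D1:**
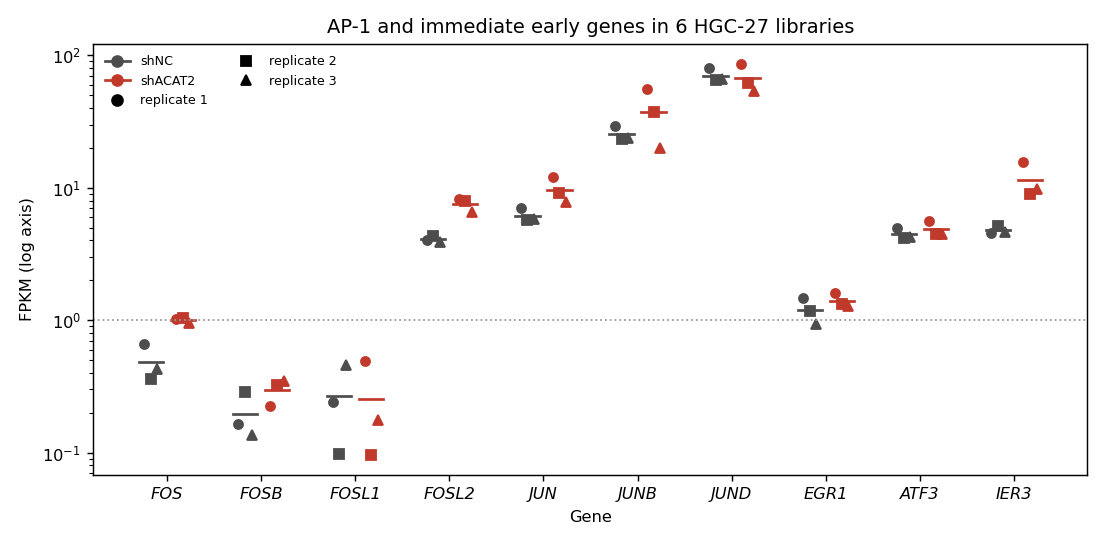
FPKM on a log axis (y) of the 10 genes (x) in each of the 6 libraries; symbols give the replicate number, short lines the group means, and the dotted line 1 FPKM. All 3 shACAT2 points lie above all 3 shNC points for FOS, FOSL2, JUN and IER3, and the groups overlap for the other 6 genes.

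The groups were compared by limma, on the log2(FPKM + 1) scale, across the 13832 genes that averaged 1 FPKM or more in controls or in knockdown cells. FOSL2 and IER3 were higher in knockdown cells at a Benjamini-Hochberg adjusted p below 0.05, which makes 2 of the 8 genes that could be tested. Across all genes tested 3.3% were called higher, 1.81% lower and 5.1% in either direction. None of the 8 was called lower by limma, 0 were lower at an unadjusted p below 0.05, and limma-voom on recovered fragments called none lower either. With the replicate number as a block, JUN joined them, making 3 higher and 0 lower of 8, where 7.67% of all genes were called higher, 4.81% lower and 12.5% in either direction. The calls of FOSL2 and IER3 were lost when any 1 of the controls or shACAT2-2 was left out, which left 0 members called. In those fits 0.454% to 0.97% of all genes were called in either direction, against 5.1% in the main fit.

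Separation of the groups was also counted. The knockdown values lay entirely above the controls in 4 of the 8 genes, against 16.2% of all genes tested, and entirely below in none, against 14.5%. FOS entered the test only through the knockdown cells, in which its mean was just over 1 FPKM, so a higher value there was a condition of its entry. The median log2 fold change of the 8 genes was 0.44, beside 0.02 for all genes tested. In bulk RNA, more cells that express a gene and more RNA per cell cannot be told apart.

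FOSL2 (FRA-2, ENSG00000075426, chromosome 2, 28392448 to 28417312, plus strand) had the highest level of the FOS family in these cells. It measured 4.04, 4.29 and 3.91 FPKM in the controls and 8.29, 7.89 and 6.53 FPKM in the knockdown libraries, from 442 to 938 fragments. Every knockdown library was higher than every control, and the values within each group were close. The estimate was a log2 fold change of 0.75 with a standard error of 0.11 (limma adjusted p = 0.0149), or 1.86-fold between the means of the FPKM values. With 1 library left out the difference stayed between 0.69 and 0.84 on the log2 scale, and the limma adjusted p was 0.0702 without shNC-1, 0.0790 without shNC-2, 0.0987 without shNC-3 and 0.0746 without shACAT2-2.

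IER3 (ENSG00000137331, chromosome 6, 30743199 to 30744554, minus strand) had the largest log2 fold change of the 8 genes. The controls gave 4.53, 5.19 and 4.62 FPKM and the knockdown libraries 15.5, 9.01 and 9.78 FPKM, from 94 to 320 fragments. The groups did not overlap, and shACAT2-1 stood above the other knockdown libraries. Its mean went from 4.78 ± 0.356 to 11.4 ± 3.57 FPKM (SD, n = 3 each), 1.07 on the log2 scale with a standard error of 0.19 (limma adjusted p = 0.0286). Leaving out shACAT2-1 left 0.85 (limma adjusted p = 0.0104), while omission of shNC-1, then shNC-2, then shNC-3 gave a limma adjusted p of 0.108, 0.109 and 0.132, and omission of shACAT2-2 gave 0.0631. IER3 shares 359 of its 1356 exonic bases with IER3-AS1 on the opposite strand, which had at most 0.506 FPKM in any library.

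JUN (ENSG00000177606, chromosome 1, 58780788 to 58784327, minus strand) is a partner through which FOS proteins reach DNA. Its controls read 7.01, 5.70 and 5.80 FPKM and its knockdown libraries 12.1, 9.11 and 7.79 FPKM. Every knockdown library was above every control, although shACAT2-3 exceeded shNC-1 only slightly. The difference of 0.56 on the log2 scale (standard error 0.16, 95% interval 0.17 to 0.95) did not pass the threshold (limma adjusted p = 0.102). It did with the replicate number as a block (limma adjusted p = 0.0325), the libraries of numbers 1, 2 and 3 differing by 0.71, 0.59 and 0.37.

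FOS (ENSG00000170345, chromosome 14, 75278774 to 75282230, plus strand), the archetypal immediate early gene, was low in every library. It was found at 0.666, 0.362 and 0.430 FPKM in controls and at 1.02, 1.04 and 0.947 FPKM in knockdown libraries, from 19 to 56 fragments. The groups did not overlap, and the knockdown values were close together. Group means differed 2.06-fold, and the log2 fold change of 0.43 (limma adjusted p = 0.146) is compressed by the pseudocount of 1. On recovered fragments, limma-voom gave 1.03 (adjusted p = 0.0469), and with the filter set to 10 fragments or more in each library the limma adjusted p was 0.0259, but it was 0.165 with a pseudocount of 0.1 and 0.319 with no filter. The call of FOS therefore varied with the test and the filter.

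JUNB (ENSG00000171223, chromosome 19, 12791496 to 12793315, plus strand), a JUN protein with weaker activation than JUN, had the widest spread between replicates of the 8 genes. The controls had 29.3, 23.2 and 23.6 FPKM and the knockdown libraries 55.2, 37.6 and 19.8 FPKM. Thus shACAT2-1 and shACAT2-2 lay above all controls and shACAT2-3 below all of them. The log2 difference was 0.44 (95% interval −0.36 to 1.24, limma adjusted p = 0.480), and its standard deviation within groups, 0.53 on the same scale, exceeded that of 95.1% of the genes tested. It was 0.83 without shACAT2-3 (limma adjusted p = 0.0613) and 0.11 without shACAT2-1. The exons of JUNB share 259 of 1820 bases with HOOK2 on the opposite strand, at 3.30 to 5.80 FPKM, and whether strand was used in counting is not given in the sources used here.

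JUND (ENSG00000130522, chromosome 19, 18279760 to 18281622, minus strand) is the JUN protein that resting cells keep at a steady level. Controls stood at 79.6, 65.1 and 65.9 FPKM and knockdown libraries at 86.7, 61.4 and 53.7 FPKM. The groups overlapped, with shACAT2-1 above all controls and the other knockdown libraries below them. The log2 difference was −0.08 (95% interval −0.54 to 0.37, limma adjusted p = 0.831), and its sign turned without shNC-1 (0.0073) and without shACAT2-3 (0.060).

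EGR1 (ENSG00000120738, chromosome 5, 138465490 to 138469315, plus strand) and ATF3 (ENSG00000162772, chromosome 1, 212565334 to 212620777, plus strand) showed small differences. EGR1 had 1.48, 1.18 and 0.943 FPKM in controls and 1.62, 1.32 and 1.27 FPKM in knockdown libraries, a log2 difference of 0.13 (95% interval −0.20 to 0.47, limma adjusted p = 0.624). ATF3 had 4.97, 4.17 and 4.26 FPKM in controls and 5.59, 4.50 and 4.49 FPKM in knockdown libraries, a log2 difference of 0.10 (95% interval −0.17 to 0.36, limma adjusted p = 0.654). In both genes the library numbered 1 was the highest of each group, and the groups overlapped. With 1 library left out, EGR1 ran from 0.046 without shNC-3 to 0.222 without shNC-1, and ATF3 from 0.0099 without shACAT2-1 to 0.162 without shNC-1, on the log2 scale.

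FOSB (ENSG00000125740, chromosome 19, 45467995 to 45475179, plus strand) and FOSL1 (FRA-1, ENSG00000175592, chromosome 11, 65892049 to 65900573, minus strand), which many invasive carcinoma lines express strongly, were under the filter of 1 FPKM. FOSB had 0.165, 0.289 and 0.136 FPKM in controls and 0.225, 0.325 and 0.348 FPKM in knockdown libraries, from 13 to 30 fragments (two-sided exact permutation test, p = 0.2). FOSL1 had 0.242, 0.0981 and 0.461 FPKM in controls and 0.489, 0.0957 and 0.177 FPKM in knockdown libraries, from 3 to 15 fragments (two-sided exact permutation test, p = 0.9). The groups overlapped in both genes. The lowest p that 3 against 3 libraries allow in this test is 0.1.

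**Figure D2:**
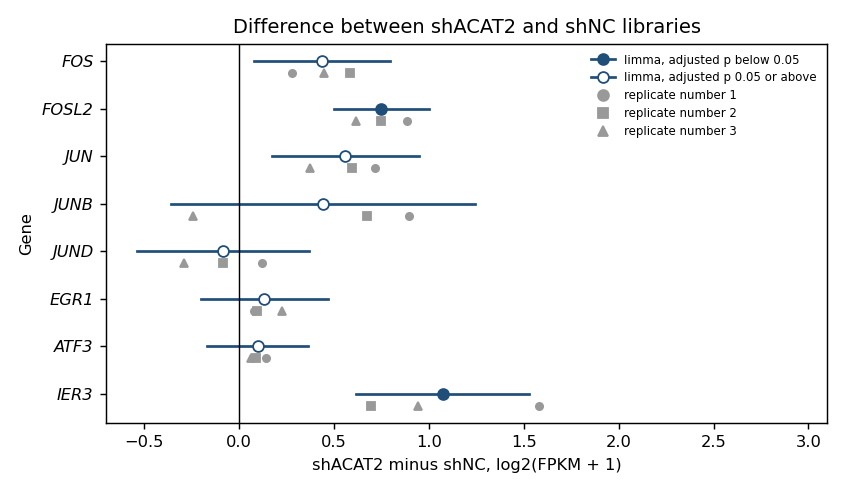
Difference between shACAT2 and shNC (x, on the log2(FPKM + 1) scale) for the 8 genes tested (y); blue points and lines give the limma estimate and its 95% interval, filled where the adjusted p was below 0.05, and grey symbols the difference between the libraries of 1 replicate number. The 2 filled points are FOSL2 at 0.75 and IER3 at 1.07, and the grey points of JUNB and JUND lie on both sides of 0.

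The composition of AP-1 mRNA was described from the share of each gene in the summed FPKM of its family in a library. Such a share does not depend on how libraries were scaled. The family sums given below do depend on it, and they were not rerun under the alternative settings. In the JUN family, JUN made up 6.05%, 6.06% and 6.08% in controls and 7.89%, 8.43% and 9.59% in knockdown libraries. The controls were nearly equal, and all knockdown shares were higher. JUND made up 68.7%, 69.3% and 69.2% in controls and 56.3%, 56.8% and 66.0% in knockdown libraries. All knockdown shares were lower, with a mean of 59.7% ± 5.50 against 69.0% ± 0.306 (SD, n = 3 each). JUNB, at 25.3%, 24.7% and 24.8% in controls, reached 35.9% and 34.8% in shACAT2-1 and shACAT2-2 but 24.4% in shACAT2-3, so that the groups overlapped. In shACAT2-3 the shift away from JUND was thus smaller and without a gain of JUNB.

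In the FOS family, FOSL2 made up most of the summed FPKM in both groups. Its share was 81.1% ± 3.50 in controls and 82.9% ± 1.39 in knockdown cells (SD, n = 3 each), and the shares of all 4 genes overlapped between the groups. The family sum was 5.03 ± 0.0886 and 9.12 ± 1.03 FPKM, higher in every knockdown library. For each 100 FPKM of the JUN family there were 4.41, 5.36 and 5.17 FPKM of the FOS family in controls and 6.51, 8.65 and 9.84 FPKM in knockdown libraries, without overlap. The JUN-family sum overlapped, at 102 ± 12.3 and 114 ± 36.8 FPKM (SD, n = 3 each).

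Of the 10 composition measures compared, 4 did not overlap between the groups, namely the shares of JUN and JUND, the FOS-family sum and the ratio of the families. Each gave p = 0.1 in a two-sided exact permutation test, the smallest that 3 against 3 libraries allow, and 0.25 after Benjamini-Hochberg adjustment over the 10. Of all genes tested, the knockdown values lay entirely above the controls in 16.2% and entirely below in 14.5%. The 10 measures are also not independent. FOSL2 made up 81.1% of the FOS-family sum in controls and 82.9% in knockdown cells. That sum therefore largely follows FOSL2, and the ratio of the families contains it. The shares of JUN and JUND are divided by the same family sum. The amounts of protein or of dimers are not measured by mRNA shares.

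Other genes of the pathway were counted from lists by textbook role. The lists were drawn up with earlier results of these data known, so their counts and medians are descriptive and no independent support. Over all genes tested, 3.3% were called higher, 1.81% lower and 5.1% in either direction. Of 11 other zipper proteins that can join AP-1 dimers, such as BATF3, JDP2 and the small MAF proteins, 6 were tested. None passed an adjusted p of 0.05 in limma or in limma-voom, and 1 was lower at an unadjusted p below 0.05, ATF7, with a log2 difference of −0.26 (limma adjusted p = 0.134). Their median was 0.09.

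Of 24 other immediate early genes, 19 were tested, and 6 rose in knockdown cells at a limma adjusted p below 0.05. Of all genes tested, 3.3% were called higher. KLF2, KLF10 and KLF6 are Krüppel-like zinc finger factors, and ZFP36L2 promotes decay of AU-rich mRNAs. KLF2 rose from 3.09 ± 0.586 to 11.4 ± 2.34 FPKM (SD, n = 3 each), by 1.59 on the log2 scale (limma adjusted p = 0.0061), and was called in all 14 alternative settings. KLF10 rose from 2.87 ± 0.0714 to 6.43 ± 0.717 FPKM, by 0.94 on the log2 scale (limma adjusted p = 0.0062, or 0.0560 without shNC-3). KLF6 rose from 6.48 ± 0.502 to 11.1 ± 0.0730 FPKM, by 0.69 on the log2 scale (limma adjusted p = 0.0110, but 0.0610 to 0.0878 without shNC-2, shNC-3 or shACAT2-2). ZFP36L2, at 33.1 ± 0.353 and 45.0 ± 1.07 FPKM, was close to the threshold (limma adjusted p = 0.0438) and kept its call with 1 library left out only when that was shACAT2-1. PPP1R15A and GADD45B, which respond to stress, completed the 6, with limma adjusted p of 0.0489 and 0.0496.

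The list did not move as one. IER2 (log2 difference −0.14), IER5 (−0.03), KLF4 (−0.17) and BTG2 (0.09) had overlapping groups and did not pass, and EGR2, EGR3 and EGR4 averaged below 1 FPKM. ZFP36 (0.62), IER5L (0.45), BTG1 (0.28) and ZFP36L1 (0.25) did not pass either, but their knockdown values all lay above the controls. Such separation upward held for 10 of the 19 and downward for 1, against 16.2% and 14.5% of all genes tested. Log2 differences were positive in 14 and negative in 5. None of the 19 was called lower in limma, although MCL1, an anti-apoptotic BCL2 protein with a log2 difference of −0.38, was lower at an unadjusted p below 0.05 and was called with either other scaling, with limma-voom and with the replicate block. The median over the 19 genes was 0.33. Leaving out control 1, 2 or 3 or shACAT2-2 reduced the 6 calls to 3, 2, 1 and 2.

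Among 15 feedback inhibitors of MAP kinase signalling, the DUSP phosphatases and the SPRY and SPRED proteins, 9 were tested and 1 was called. The share called higher over all genes tested was 3.3%. DUSP2 rose from 0.261 ± 0.115 to 1.28 ± 0.0593 FPKM (SD, n = 3 each), by 0.86 on the log2 scale (limma adjusted p = 0.0267). Like FOS it entered the test only through knockdown cells, and its limma adjusted p was 0.0517 to 0.115 with any 1 of the 6 libraries left out. DUSP1, the classical serum-induced phosphatase, was at 7.67 ± 1.17 and 10.2 ± 1.27 FPKM (limma adjusted p = 0.161, or 0.0490 with the replicate block). DUSP4, DUSP5, DUSP6 and SPRY4 averaged below 1 FPKM in both groups.

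Of 21 upstream kinases and transcription factors, 18 were tested and 1, MAPK9, was called, near the 5.1% of all genes called in either direction. MAPK9 encodes JNK2, a kinase that phosphorylates JUN, and rose from 8.80 ± 0.147 to 12.6 ± 0.268 FPKM (SD, n = 3 each), by 0.48 on the log2 scale (limma adjusted p = 0.0258). The call was lost after upper-quartile scaling (limma adjusted p = 0.0527) and without any 1 of the controls or shACAT2-2 (0.0951 to 0.153). SRF was at 18.5 ± 1.59 and 20.9 ± 4.29 FPKM, a log2 difference of 0.15 (limma adjusted p = 0.617). The median over the 18 genes was −0.02.

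Of 22 known AP-1 target genes, 14 lay under the filter, among them the collagenases MMP1 and MMP13, listed at 0 in all 6 libraries. Of the 8 tested, 2 rose, against 3.3% of all genes tested called higher, and both were called in all 14 alternative settings. CCL2, a monocyte chemokine, rose from 3.90 ± 0.157 to 14.2 ± 2.39 FPKM (SD, n = 3 each), by 1.62 on the log2 scale (limma adjusted p = 0.0035). CD44, the hyaluronan receptor, rose from 3.42 ± 0.208 to 7.08 ± 0.138 FPKM, by 0.87 on the log2 scale (limma adjusted p = 0.0048). CCND1, the G1 cyclin, was at 60.4 ± 4.41 and 68.3 ± 2.82 FPKM with overlapping groups (limma adjusted p = 0.363). The median over the 8 genes was 0.31, PLAU included. PLAU entered the test only through knockdown cells, at 0.563 FPKM in controls and 1.03 FPKM in knockdown cells. A higher value there was a condition of its entry.

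For TEAD, none of the 6 factors and co-activators was called in limma and 0 had an unadjusted p below 0.05, with log2 differences of 0.53 for TEAD1 (limma adjusted p = 0.253, but 0.0413 with the replicate block and 0.0419 without shACAT2-1), −0.05 for YAP1 and 0.01 for WWTR1, which encodes TAZ. Of 10 TEAD target genes 9 were tested and 6 rose, against 3.3% of all genes tested called higher. Among the 6 were CYR61 and CTGF, higher by 1.28 and 1.42 on the log2 scale (limma adjusted p = 0.0107 and 0.0133). Leaving out control 1, 2 or 3 or shACAT2-2 reduced the 6 to 3, 2, 1 and 1. ANKRD1, 1 of these 6, entered the test only through knockdown cells, at 0.208 FPKM in controls and 1.07 FPKM in knockdown cells, and lost its call with the replicate block (limma adjusted p = 0.0513), a pseudocount of 0.1 (0.0574), no filter (0.0820) and any 1 library left out (0.0560 to 0.152).

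**Figure D3:**
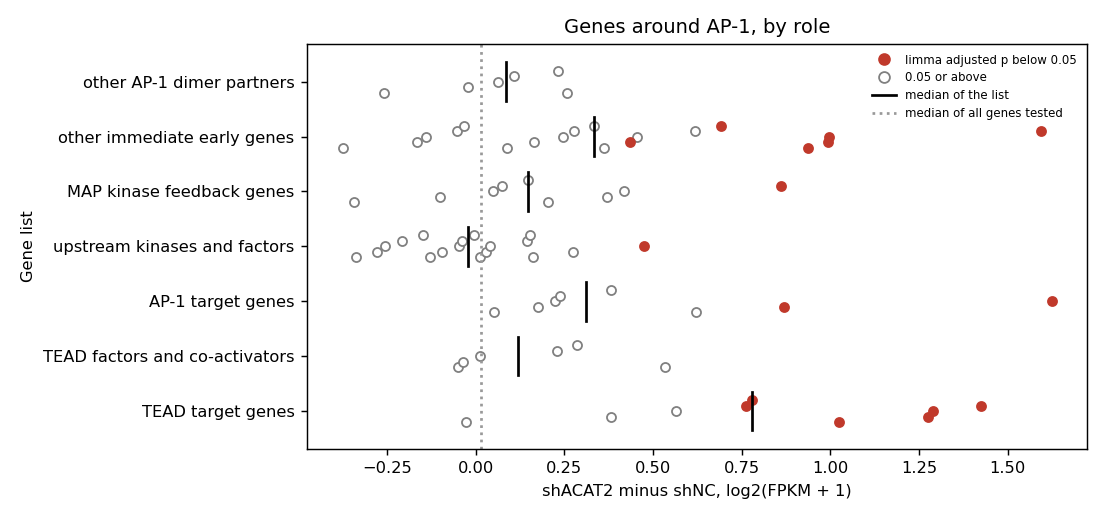
Difference between shACAT2 and shNC (x, log2(FPKM + 1) scale) for the tested genes of each list (y), filled where the limma adjusted p was below 0.05, with the median of each list as a black line and that of all genes tested as a dotted line. Filled points lie on the right of 0, with 6 in the other immediate early genes and 6 in the TEAD targets.

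The genes whose log2(FPKM + 1) followed FOSL2 most closely were SCARA3, a scavenger receptor-like protein, ATP6V1D, a subunit of the vacuolar proton pump, and VGF, a secreted neuropeptide precursor. Each had a Pearson correlation of 0.995 with FOSL2 over the 6 libraries, which share the grouping into control and knockdown cells. SCARA3 averaged 8.81 FPKM in controls and 23.2 FPKM in knockdown cells, ATP6V1D 8.75 and 12.9 FPKM, and VGF 1.10 and 5.97 FPKM.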

How the data were processed

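The deposited table holds FPKM made by the authors for 58735 genes in 6 libraries of HGC-27 cells. HISAT2 2.0.5, featureCounts 1.5.0-p3, DESeq2 1.20.0 and hg38 are named in the submitters' processing notes, without their roles, and the strand setting is not given in the sources used here. All 58735 gene coordinates matched GENCODE release 29 (GRCh38). Fragments were read back from FPKM and gene length, and 100% of values came out whole within 0.01 fragment.

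Genes averaging 1 FPKM or more in a group were fitted with limma 3.58.1 (trended, in R 4.3.3) on log2(FPKM + 1), with Benjamini-Hochberg adjustment over all 13832 genes. A fold change on this scale understates that of low genes. The fit was tested on simulated data of this comparison with 13440 genes, where it found 97.5% of the 200 genes given a log2 change of 1.5 and called 15 unchanged genes. The simulated libraries were independent, with the same small dispersion for every gene, and only genes with enough fragments were changed. The real libraries deviated unevenly within groups, and the largest log2 fold change of a member was 1.07. These rates therefore do not carry over to the members. Shares and genes under the filter were compared by two-sided exact permutation tests over libraries (scipy 1.17.1, Python 3.11.15).

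Deviations from the group means correlated at 0.445, 0.126 and 0.171 between libraries with the same number. Numbers 2 and 3 were not clearly matched, since shNC-2 correlated with shACAT2-3 at 0.198 and shNC-3 with shACAT2-2 at 0.141. The main fit was unpaired. The numbers, taken from the sample titles, served as pairs in a blocked fit and in a sign-flip test of the composition measures. The blocked fit was an alternative, beside upper-quartile and total-fragment scaling, no filter, at least 10 fragments per library, a pseudocount of 0.1, limma-voom, a mean of shNC-2 with shNC-3, and each library left out, which makes 14. The genes named were the members, ACAT2, up to 4 called genes per list and direction with the smallest p, TEAD1, YAP1, WWTR1, CTGF, CYR61 and SRF, and the 3 genes most like the member with the smallest p. Marker genes were set by cell type, and any other gene was named after its values were seen. The members and lists were chosen with earlier results of these data known. Protein sequences were not used here.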

Additional observations from a re-analysis of the deposited data

How the results depend on the processing

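The directions of FOS, FOSL2, JUN, JUNB, EGR1, ATF3 and IER3 were kept in every alternative that gave a value, and FOS, under the filter after upper-quartile scaling and without shACAT2-1 or shACAT2-2, had none there. The 2 members called higher became 0 with no filter (limma adjusted p = 0.0522 for FOSL2 and 0.0999 for IER3), 0 with shNC-2 and shNC-3 as their mean (0.0845 and 0.122), 3 with limma-voom, with at least 10 fragments per library and with the replicate block, and 0 to 2 with 1 library left out. The 16 genes of the other lists called higher became 9 with no filter, 5 with that mean and 4 to 16 with 1 library left out. No gene of these lists was called lower, with 3 lower at an unadjusted p below 0.05, and 1, MCL1, was after either other scaling, with limma-voom and with the replicate block. With 1 library left out the number was 0 to 1, MAP2K7 without shACAT2-1. Over all genes, 706 calls, 5.1% of those tested, became 1727 or 12.5% with the replicate block. Limma-voom called 584 higher and 581 lower (8.42%), and at least 10 fragments per library gave 606 higher and 428 lower (7.18%). There were 149 higher and 60 lower with no filter, and 63 higher and 20 lower with the mean of shNC-2 and shNC-3. Fewer libraries enter the mean and the fits without 1 library, and more genes are adjusted for without a filter. Without shACAT2-1, however, 523 genes were called higher and 339 lower, and without shACAT2-3 458 and 246. Without any 1 of the controls or shACAT2-2, 49 to 100 were called higher and 14 to 35 lower. The cause of these changes was not tested. Among the members, the block changed no other call than that of JUN.

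JUND ran from −0.28 to 0.060 with 1 library left out, YAP1 from −0.10 to 0.032 and WWTR1 from −0.046 to 0.050. WWTR1 was −0.037 and −0.032 after upper-quartile and total-fragment scaling and −0.041 with limma-voom. The FOSB share difference, −0.54 percentage points, ran from −1.12 to 0.370. The cause was not tested. Fragments not divided by length moved the JUN share difference from 2.57 to 4.33 percentage points and the difference in FOS-family per 100 JUN-family from 3.35 to 10.8, with exonic lengths of 3540 bases for JUN against 1820 and 1863 for JUNB and JUND, and 7157 for FOSL2. FOSL1, FOSB and FOS rested on 3 to 56 fragments per library.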
